A study of Mus musculus with 6 samples.

Results

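The regions described here were H3S10p peaks at the distal ends of mouse chromosomes 1, 2, 4 to 10, 12, 13 and 15 to 18. They were chosen by position alone, as peaks with a midpoint within 10 Mb of the last called base of their chromosome over both peak lists. They numbered 1026 in library 1 and 1093 in library 2, which is 2119 of the 23328 peaks of the series and 2119 of the 18739 peaks on these 15 chromosomes. Both libraries came from mouse embryonic stem cells (strain 129P2/Ola) held for 20 hours in aphidicolin, which blocks DNA replication, and released for 3 hours. Chromatin was immunoprecipitated with 1 antibody, ab14955, against histone H3 phosphorylated at serine 10 (H3S10p) and sequenced (ChIP-seq). The labels name neither a second ChIP condition nor separate cultures for the libraries, so the spread between them may be technical. Peaks are listed intervals with a score each, which leaves no marker by which the labelled cell type could be checked. Read depth is unknown from these lists, and no input library was analysed here, so whether the calls reflect enrichment of H3S10p was not tested.

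H3S10p is placed mainly by Aurora B kinase as cells approach mitosis, when it spreads over the condensing chromosomes, and a second, sparser form is placed at some genes in interphase. On histone H3 the phosphate lies next to lysine 9, and it weakens the binding of heterochromatin protein HP1 to the methylated lysine. Mouse autosomes carry the centromere at their first base, so their last bases lie toward the opposite, distal telomere. The telomere repeats themselves are not in the assembled sequence, and the windows described here end at the last peak, wherever that fell.

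Peaks were packed more densely in the distal 10 Mb than in the rest of the same chromosomes in both libraries. Library 1 held 6.84 peaks per Mb at the ends (exact Poisson 95% interval 6.43 to 7.27) and 4.35 in the rest (4.26 to 4.45). Library 2 held 7.29 (6.86 to 7.73) and 4.85 (4.75 to 4.95). The distal windows were thus 1.57 and 1.502 times as dense, and with 7.67% of the assembled span they held 11.5% and 11.1% of the peaks. The share of bases under a peak was 0.2504% and 0.241% at the ends, against 0.165% and 0.177% elsewhere. Such intervals reflect counting error alone and treat nearby peaks as independent, which they are not.

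That excess was uneven over chromosomes. With the libraries averaged, the distal density was 7.06 ± 3.94 peaks per Mb (mean ± SD, n = 15 chromosomes) and the rest density 4.56 ± 1.08, a difference of 2.503 ± 3.89. The distal end was denser on 12 of 15 chromosomes, and on 11 of them in both libraries. The two-sided exact sign-flip permutation test over chromosomes gave p = 0.0248, and p = 0.058 after Benjamini-Hochberg adjustment over 7 comparisons, so the difference did not pass the threshold of 0.05. Leaving out chromosome 13, 17 or 18 in turn brought the adjusted permutation p to 0.0295, 0.00883 or 0.0404, with differences of 2.81, 2.996 and 2.75 peaks per Mb. These are the 3 chromosomes whose ends were the less dense, so leaving out any of them had to raise the mean difference. Without any of the other 12 the adjusted permutation p was 0.057 to 0.116. Each adjustment covers the 7 comparisons of 1 setting and not the number of settings tried. Chromosomes are not biological replicates, and this holds for each test over chromosomes given here.

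Chromosome 4 stood highest, with 146 distal peaks in library 1 and 157 in library 2, or 15.2 ± 0.78 peaks per Mb (mean ± SD, n = 2 libraries) against 5.32 ± 0.57 in its rest. Chromosome 8 followed, with 118 and 137 distal peaks and 12.8 ± 1.34 peaks per Mb against 4.22 ± 0.33. The distal end of chromosome 15 held 122 and 118 peaks, or 12.0 ± 0.28 peaks per Mb against 4.15 ± 0.39. On these 3 chromosomes the libraries agreed on the size of the excess, which was 9.68 and 9.98 peaks per Mb on chromosome 4, 7.81 and 9.25 on chromosome 8, and 8.33 and 7.37 on chromosome 15. Together with chromosome 7, at 88 and 107 distal peaks, they carried 474 of the 1026 distal peaks of library 1 (46.2%) and 519 of the 1093 of library 2 (47.5%). These 4 windows were picked as the densest of 15 windows of equal length. A share above an even one follows from that choice.

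At the other extreme, chromosome 17 had 23 and 27 distal peaks, or 2.50 ± 0.28 peaks per Mb, although the remainder of that chromosome was the densest of the 15 at 6.896 ± 0.56. The difference, distal minus rest, was -4.20 and -4.59 peaks per Mb in the libraries. Chromosome 13 had 19 and 16 distal peaks (1.75 ± 0.21 per Mb against 3.596 ± 0.17), and chromosome 18 had 19 and 28 (2.35 ± 0.64 against 3.29 ± 0.36). The ends therefore spanned 1.75 to 15.2 peaks per Mb, while the rest of the chromosomes spanned only 3.19 to 6.896. How dense the body of a chromosome was said little about its end: Spearman's rho between distal and rest density across the 15 chromosomes was 0.22 in library 1 and 0.31 in library 2. The distal counts themselves were ordered alike in the libraries (Pearson's r = 0.96, Spearman's rho = 0.94 across the same chromosomes, given as a description).

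**Figure D1:**
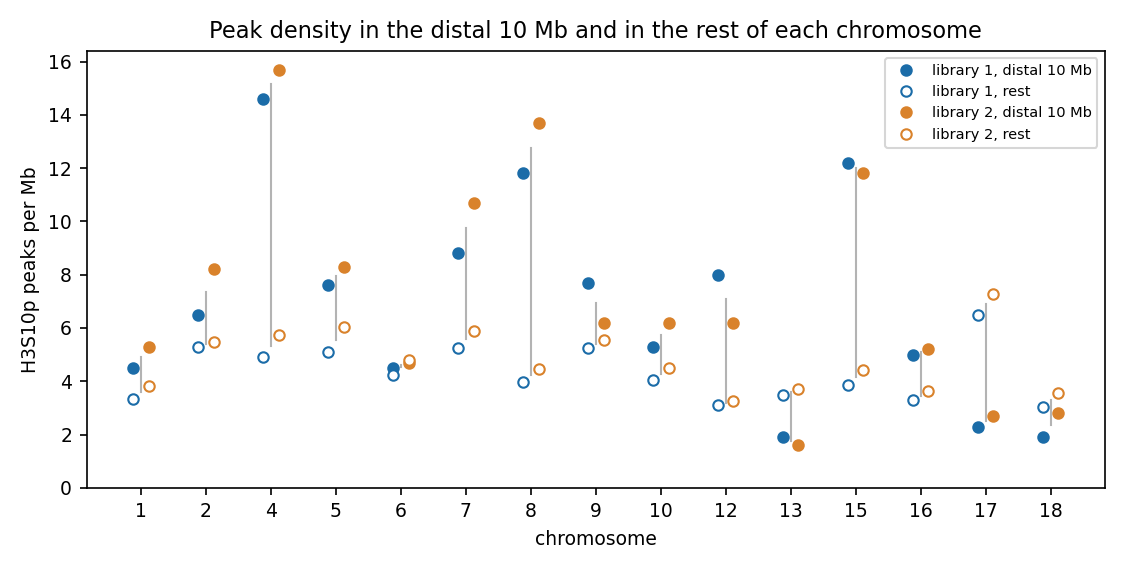
Peaks per Mb (vertical axis) on each of the 15 chromosomes (horizontal axis), with filled points for the distal 10 Mb, open points for the rest, colours for the 2 libraries and grey lines joining the library means. Chromosomes 4, 8 and 15 reach 12.0 to 15.2 peaks per Mb at their ends, while the ends of chromosomes 13, 17 and 18 lie below the rest.

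Counted back from the last called base in bins of 1 Mb, density neither rose nor fell steadily within the 10 Mb. The outermost bin held 117 peaks in each library over the 15 chromosomes, or 7.80 per Mb (6.45 to 9.35). Bins up to 9 Mb from the end held 95 to 120 peaks in library 1 and 87 to 131 in library 2. The innermost bin, 9 to 10 Mb from the end, held 72 (4.80 per Mb, 3.76 to 6.04) and 78 (5.20, 4.11 to 6.49). Just outside the border, the bin from 10 to 11 Mb held 73 and 70, and the next one 56 in each. Density rose again beyond the border, to 151 and 163 peaks (10.1 and 10.9 per Mb) between 14 and 15 Mb. From 10 to 20 Mb it averaged 6.33 (5.94 to 6.75) and 6.91 (6.499 to 7.35) peaks per Mb, so high density was not limited to the last 10 Mb. The bin from 20 to 21 Mb held 58 and 73 peaks (3.87 and 4.87 per Mb), near the 4.35 and 4.85 of the rest. Farther in, density was high again, with 117 and 141 peaks (7.80 and 9.40 per Mb) between 24 and 25 Mb. With a distal region of 20 Mb the difference from the rest was 2.43 peaks per Mb and passed (adjusted permutation p = 0.0422). With 5 Mb it was 2.74 and did not pass (adjusted permutation p = 0.257), nor did the log2 ratio of distal to rest density at 10 Mb (0.43, adjusted permutation p = 0.123).

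Within the 10 Mb, the outer 5 Mb had 7.39 ± 5.67 peaks per Mb and the inner 5 Mb 6.74 ± 4.82 (mean ± SD, n = 15 chromosomes). The difference of 0.647 ± 6.97 did not pass (exact sign-flip permutation p = 0.726, adjusted p = 0.847), and the outer part was denser on 8 chromosomes and less dense on 7. The chromosomes differed in where their dense bins lay. On chromosome 15, the 5 outermost bins held 15, 25, 26, 10 and 16 peaks in library 1 and 21, 19, 22, 12 and 22 in library 2, while its 5 inner bins held 2 to 13 and 3 to 9. Chromosome 8 had the reverse layout: 0 and 1 peak in its outermost bin, 2 in each library in the next, and 18 to 25 and 23 to 30 in the bins between 5 and 9 Mb from the end. On chromosome 12, the bins between 3 and 5 Mb from the end were empty in both libraries, the bin from 5 to 6 Mb held 8 and 7 peaks, and those at 6 to 7 Mb and 7 to 8 Mb held 19 and 17, and 22 and 11.

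The 3 fullest bins by the mean of the libraries were all on chromosome 8, on build mm9 as for all positions given here. The bin from 122883748 to 123883747 held 25 and 29 peaks, the one from 121883748 to 122883747 held 18 and 30, and the one from 124883748 to 125883747 held 25 and 23. A bin on chromosome 15 from 100368553 to 101368552 tied with the latter pair at a mean of 24 (26 and 22 peaks) and followed it by chromosome order. Across the 150 distal bins, the median was 5 peaks in each library, against 2 and 3 in the 1799 bins of the rest. At least 10 peaks lay in 28.7% and 28.0% of the distal bins, against 13.1% and 15.1% of the others. Bins with 20 or more were rarer, at 4.67% and 8.0% of the distal bins (7 and 12 of 150) and 3.34% and 4.61% of the others. The highest distal counts of 26 and 30 stayed below the 41 and 55 reached among the more numerous bins of the rest. Bins empty in both libraries made up 6.00% (9 of 150) at the ends and 13.2% elsewhere, and chromosome 18 had 3 of these 9. The outermost bin of each chromosome holds the peak that set its end and cannot be empty. The shares of empty bins at the ends and elsewhere are therefore not strictly comparable.

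**Figure D2:**
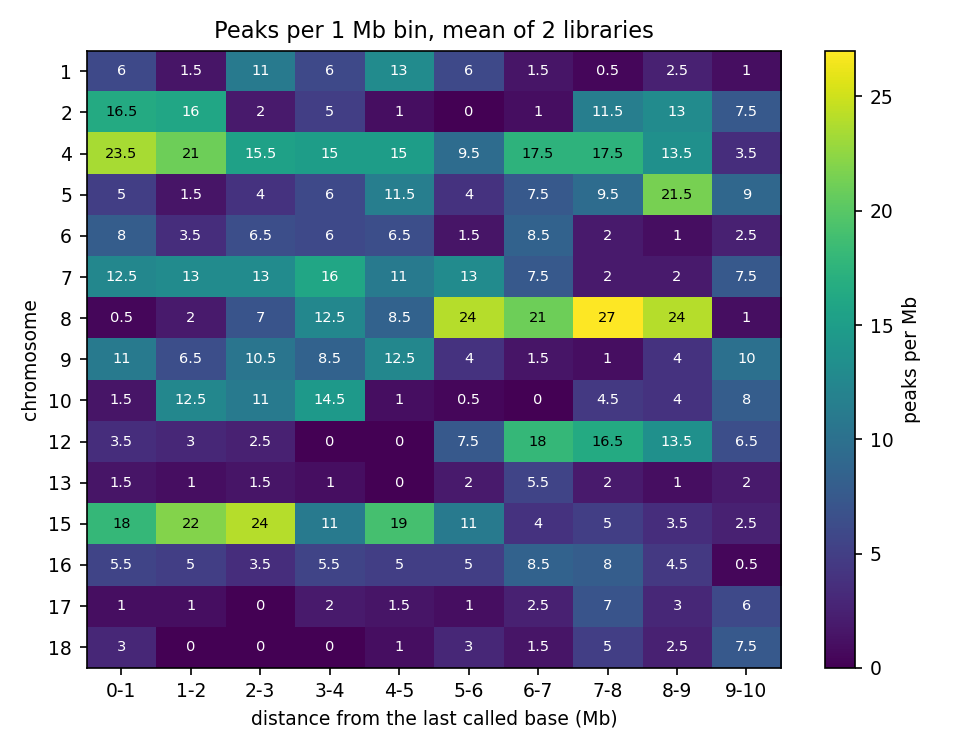
Peaks per 1 Mb bin (colour and printed number, mean of the 2 libraries) by chromosome (rows) and distance from the last called base in Mb (columns). Dense bins sit mostly in the outer 5 Mb on chromosome 15 and in the inner 5 Mb on chromosomes 8 and 12, and are spread over most of the 10 Mb on chromosome 4.

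**Figure D3:**
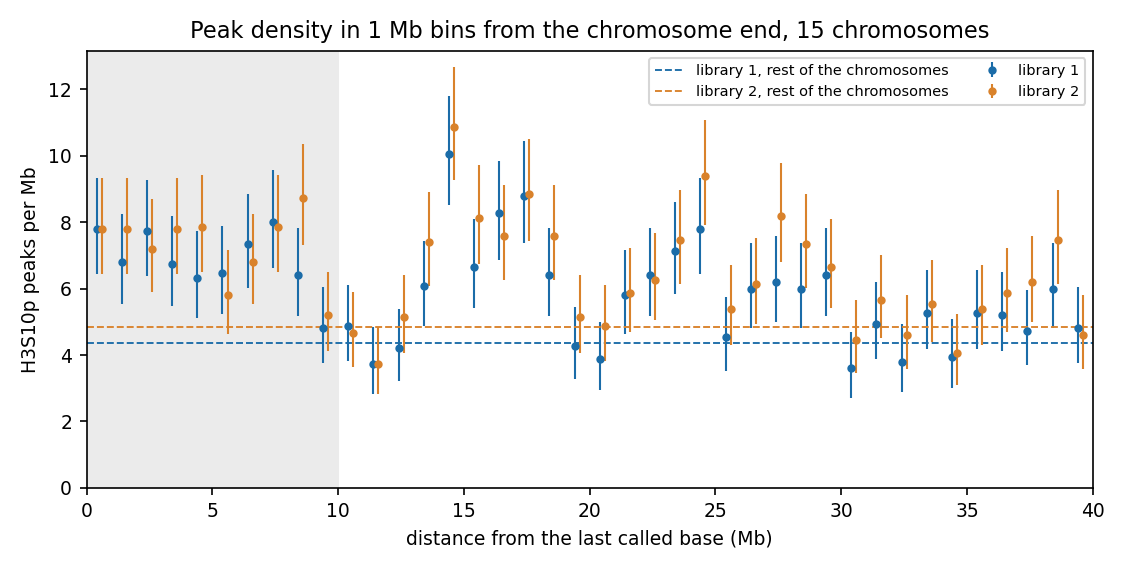
Peaks per Mb (vertical axis) in 1 Mb bins by distance from the last called base in Mb (horizontal axis), pooled over 15 chromosomes, with exact Poisson 95% intervals, colours for the libraries, dashed lines for the rest of the chromosomes and grey shading for the distal 10 Mb. The bins from 0 to 9 Mb lie above the dashed lines, density dips between 9 and 13 Mb, and it is higher again at 14 to 15 Mb.

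Against the opposite end of the same chromosomes, the distal end was denser. The first 10 Mb of assembled sequence, which start at 3 Mb and flank the centromere, held 457 peaks in library 1 (3.05 per Mb, 2.77 to 3.34) and 500 in library 2 (3.33, 3.05 to 3.64). The distal 10 Mb exceeded them by 3.87 ± 3.88 peaks per Mb over the 15 chromosomes, and 11 of 15 had the denser distal end (exact sign-flip permutation p = 0.00134, adjusted p = 0.00705). Chromosome 5 showed this plainly, with 17 and 23 peaks in its first 10 Mb and 76 and 83 in its last 10 Mb. Chromosomes 13, 16, 17 and 18 went the other way by 0.3 to 1.1 peaks per Mb. With 5 Mb in place of 10 Mb at each end the difference was 3.70 peaks per Mb and missed the threshold (adjusted permutation p = 0.054).

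Distal peaks recurred less often between the libraries. On these 15 chromosomes as a whole, 35.4% of library 1 peaks and 31.9% of library 2 peaks shared 1 bp or more with a peak called in the other library. At the distal ends 269 peaks of each library did, or 26.2% in library 1 (Wilson 95% interval 23.6 to 29.0%) and 24.6% in library 2 (22.1 to 27.3%). In the rest it was 36.6% (35.6 to 37.7%) and 32.9% (31.9 to 33.9%). Averaged by chromosome, the share was 27.3 ± 8.48% at the ends and 34.7 ± 2.84% in the rest, a difference of -7.46 ± 7.02 percentage points (mean ± SD, n = 15). It was lower on 13 of 15 chromosomes in each library, and the test over chromosomes passed (exact sign-flip permutation p = 0.00201, adjusted p = 0.00705).

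The largest gap was on chromosome 12, where 11 of 80 distal peaks in library 1 (13.8%) and 11 of 62 in library 2 (17.7%) were shared, against 35.4% and 33.9% in its rest. On chromosome 4, the densest end, 32 of 146 (21.9%) and 32 of 157 (20.4%) were shared, against 37.7% and 32.6%. Chromosomes 1 and 6 were the exceptions. On chromosome 1, 22 of 45 (48.9%) and 22 of 53 (41.5%) distal peaks recurred, and on chromosome 6, 21 of 45 (46.7%) and 21 of 47 (44.7%), each above the rest of its own chromosome in both libraries. These 2 ends were also among the less dense, at 4.90 and 4.60 peaks per Mb, but sparser ends went the other way. On chromosomes 13, 17 and 18, at 1.75, 2.50 and 2.35 peaks per Mb, 28.8%, 24.2% and 26.5% of distal peaks were shared. The rest of these chromosomes stood at 36.5%, 33.1% and 30.3% (libraries averaged).

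**Figure D4:**
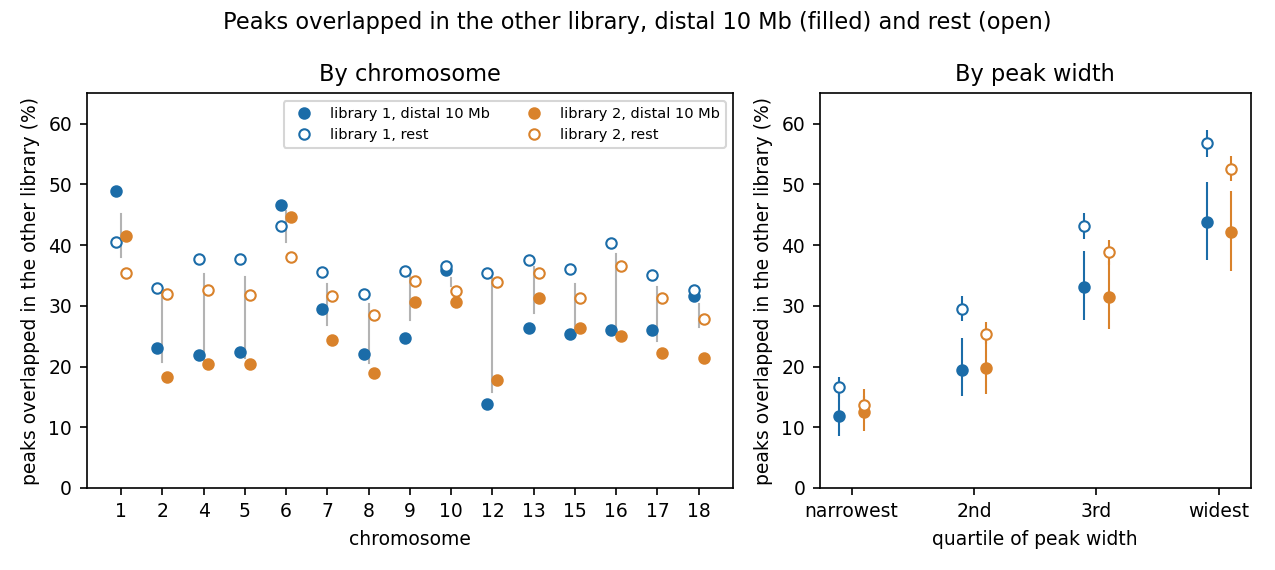
Percent of peaks overlapped in the other library (vertical axes) by chromosome (left) and by quartile of peak width (right), with filled points for the distal 10 Mb, open points for the rest, colours for the libraries and, on the right, Wilson 95% intervals. Distal points lie below the rest except on chromosomes 1 and 6, and at each width.

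Split by recurrence, the distal excess consisted mostly of peaks called in a single library. Shared peaks lay at 1.79 per Mb at the ends in each library and at 1.59 per Mb in the rest, a ratio of 1.13. Peaks of a single library lay at 5.05 and 5.49 per Mb at the ends and at 2.76 and 3.26 in the rest, ratios of 1.83 and 1.69. Over chromosomes, shared peaks alone differed by 0.22 ± 0.886 peaks per Mb and were denser at the end on 8 of 15 (adjusted permutation p = 0.492). Single-library peaks alone, a split added after the shares were seen, differed by 2.28 ± 3.14 and were denser on 11 of 15 (adjusted permutation p = 0.0282). The difference between these 2 results was not itself tested.

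**Figure D5:**
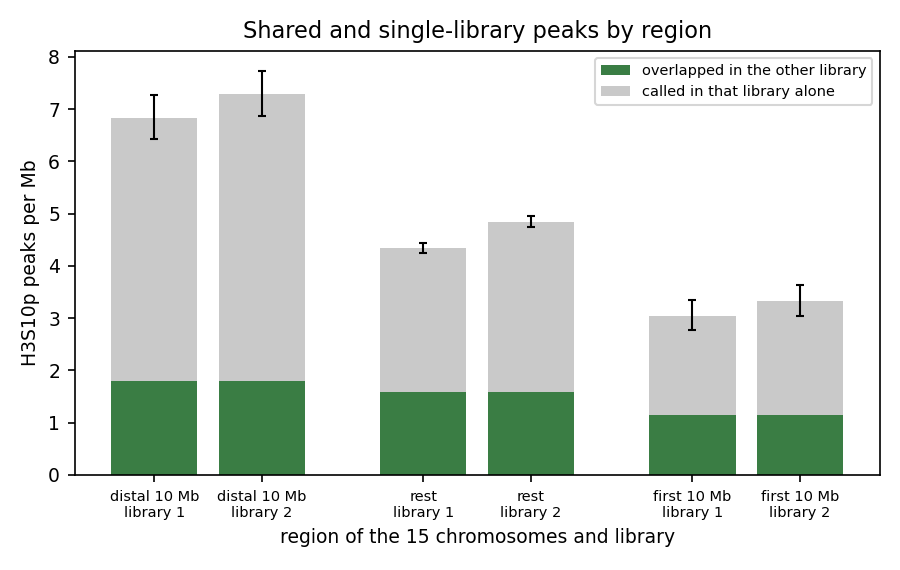
Peaks per Mb (vertical axis) in the distal 10 Mb, the rest and the first 10 Mb of the 15 chromosomes (horizontal axis, both libraries), split into peaks overlapped in the other library (green) and peaks called in that library alone (grey), with exact Poisson 95% intervals for the total. The green parts are 1.79 at the ends and 1.59 in the rest, while the grey parts are 5.05 and 5.49 against 2.76 and 3.26.

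Width and local crowding, which move with recurrence, were set beside this gap. Over these chromosomes wide peaks recurred more often, at the ends as elsewhere. In the widest 25% of peaks (over 477 bp in library 1 and 459 bp in library 2) the shared part was 43.9% (37.6 to 50.4%) at the ends against 56.8% (54.6 to 59.0%) in library 1, and 42.2% (35.7 to 48.9%) against 52.6% (50.5 to 54.6%) in library 2. In the narrowest 25% it was 11.8% (8.55 to 16.1%) against 16.6% (15.01 to 18.3%), and 12.4% (9.33 to 16.4%) against 13.6% (12.2 to 15.1%), where the intervals overlap. With the 4 width groups weighted equally, the difference in the shared part was -6.84 percentage points and passed (adjusted permutation p = 0.0164).

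In the rest of the chromosomes the shared part was smaller where bins held more peaks, and at the ends it was smaller still in each group of like count. In 1 Mb bins with 10 to 19 peaks it was 23.6% (20.1 to 27.6%) at the ends against 35.96% (34.0 to 37.9%) in library 1, and 22.8% (19.02 to 27.0%) against 31.0% (29.3 to 32.9%) in library 2. In bins with 1 to 4 peaks it was 31.8% against 38.8% and 27.9% against 35.4%, with overlapping intervals. Restricted to bins of 5 to 19 peaks, which was tried once the data had been seen, it differed by -5.26 percentage points and did not pass (adjusted permutation p = 0.11). Nor did it pass in the upper 50% of each list by score (-3.27 points, adjusted permutation p = 0.153) or for a distal region of 5 Mb (-3.58 points, adjusted permutation p = 0.44).

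By distance from the end, recurrence within the 10 Mb was lowest in the bins between 6 and 8 Mb. The outermost bin had 40 shared peaks among 117 in each library (34.2%, 26.2 to 43.2%), close to the share over the whole of these chromosomes. The bin from 7 to 8 Mb had 19 of 120 in library 1 (15.8%, 10.4 to 23.4%) and 19 of 118 in library 2 (16.1%, 10.6 to 23.8%). Between 5 and 8 Mb together, 60 of 327 (18.3%, 14.5 to 22.9%) and 60 of 307 (19.5%, 15.5 to 24.3%) were shared. Chromosome 4 contributed 3 shared peaks among 50 and 39 there, and chromosome 12 contributed 5 among 49 and 35. Chromosome 8 contributed 13 among 69 and 75. A low share was not seen on each chromosome. Chromosome 7 had 8 shared among 24 and 21 and chromosome 13 had 4 among 10 and 9, while chromosome 10 had 0 among 4 and 6. The bin from 9 to 10 Mb was back at 34.7% and 32.1%, and the stretch from 10 to 20 Mb stood at 33.5% (30.5 to 36.5%) and 30.9% (28.1 to 33.7%). The 5 to 8 Mb stretch was picked after its values were seen and carries no test.

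Peaks of the 2 libraries that did not overlap were rarely near misses. Of the single-library distal peaks, 45 of 757 in library 1 (5.94%) and 43 of 824 in library 2 (5.22%) lay within 1 kb of a peak of the other library, against 6.61% and 5.73% in the rest. Within 10 kb the shares were 31.7% in each library, against 29.5% and 26.6%. Where peaks did overlap, the 269 distal pairs shared a median of 63.4% of their joint length and their borders differed by a median of 90 bp (start and end averaged), against 65.6% and 87.5 bp for the 2888 pairs of the rest. Counts per bin went together between the libraries, with Spearman's rho = 0.89 and Pearson's r = 0.86 across the 150 distal bins, and 0.86 and 0.93 across the bins of the rest (descriptions across bins).

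Median widths were lower at the ends in both libraries, by a difference that did not pass over chromosomes. The median width was 299.5 bp in library 1 and 261 bp in library 2 at the ends, against 322 and 298 bp in the rest. The 10th to 90th percentiles at the ends ran from 180.0 to 650.0 bp and from 174 to 584 bp. Over chromosomes the difference in median width was -18.97 ± 36.9 bp, with lower values at the ends on 12 of 15 chromosomes (exact sign-flip permutation p = 0.0674, adjusted p = 0.0944). Without library 1 the difference was -29.9 bp and passed (adjusted permutation p = 0.00741), and without library 2 it was -8.03 bp (adjusted permutation p = 0.771). Without chromosome 13, whose distal medians were 436 and 315 bp, it was -24.2 bp and passed (adjusted permutation p = 0.0295).

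Scores carry no named scale, so ends and rest were compared within each list and the differences then averaged over the libraries. The median score at the ends was 64.6 in library 1 and 66.7 in library 2, against 66.3 and 66.9 in the rest. The lowest listed scores were 50.01 and 50.04 at the ends and 50.01 and 50.02 in the rest. The medians thus lay near the low end of each list. The mean difference by chromosome was -0.953 ± 1.75 and did not pass (exact sign-flip permutation p = 0.0524, adjusted p = 0.0916), although the ends were lower on 11 of 15 chromosomes. Leaving out chromosome 16 or 18 in turn brought the adjusted permutation p to 0.0382 or 0.0404, at -1.16 and -1.13. High scores were few: 2 of 1026 distal peaks in library 1 and 3 of 1093 in library 2 exceeded 150. The highest were 378 and 162. In the rest of these chromosomes 33 of 7859 and 34 of 8761 peaks exceeded it, and the highest scores were 2299 and 2322. The rest holds many more peaks, so neither its counts nor its highest scores compare directly with those of the ends.

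Shared distal peaks were ordered by the mean of their 2 listed scores, which is a description only. The first lay on chromosome 5, 5.38 Mb from the end, where library 1 had a peak from 147072462 to 147073008 with a score of 378, the highest of its distal list, and library 2 one from 147072464 to 147072999 with 160.03, just below the highest of its own, 162. Their borders differed by 5.5 bp on average. The next by mean score set the end of chromosome 6, at 149419981 to 149420266 (score 110) and 149420003 to 149420308 (143). It was followed by chromosome 15 at 98493181 to 98493494 (101) and 98492997 to 98493508 (152), chromosome 4 at 146026089 to 146026446 (121) and 146026176 to 146026424 (118), and chromosome 6 at 144705229 to 144705409 (74.4) and 144705172 to 144705388 (134). In all, 10 of the 269 distal pairs (3.72%) had a mean score over 100, against 3.6011% of pairs in the rest. The genes and sequence at these positions were not analysed here.

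The widest distal peaks were mostly seen in 1 library or were narrower in the other. In library 1 the widest was on chromosome 4 from 155265197 to 155266863 (1667 bp), followed by chromosome 5 from 144014713 to 144015920 (1208 bp), and neither overlapped a library 2 peak. The next, on chromosome 6 from 141197761 to 141198938 (1178 bp), had a partner of 1185 bp from 141197978 to 141199162. In library 2 the widest was on chromosome 7 from 146767154 to 146768632 (1479 bp), with no partner. A peak on chromosome 4 from 151504833 to 151506222 (1390 bp) had a partner of 810 bp, and another on that chromosome from 154357893 to 154359127 (1235 bp) one of 859 bp. The rest of the chromosomes, with many more peaks, held wider ones, up to 5969 and 3828 bp.

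Clustering was measured as the share of peaks with a neighbour in the same library at a gap of at most 10 kb. Over all peaks of these chromosomes it was 21.9% in library 1 and 24.4% in library 2. At the ends it was 23.9% (21.4 to 26.6%) and 27.2% (24.6 to 29.9%), against 21.7% (20.8 to 22.6%) and 24.0% (23.1 to 24.9%) in the rest. Averaged by chromosome the difference was -0.158 ± 7.73 percentage points, with 7 chromosomes higher and 8 lower (exact sign-flip permutation p = 0.935, adjusted p = 0.935). The pooled shares were thus higher at the ends and the average over chromosomes was not. The pooled values weight chromosome 4, at 35.6% and 34.4%, by its 146 and 157 distal peaks, and chromosome 1, at 6.67% and 11.3%, by its 45 and 53.

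At like peak counts, the intervals of the distal and other shares overlapped. In 1 Mb bins with 10 to 19 peaks, 27.1% (23.3 to 31.2%) of distal peaks had such a neighbour against 26.8% (25.1 to 28.7%) in library 1, and 31.7% (27.4 to 36.3%) against 26.9% (25.2 to 28.6%) in library 2. In bins of 20 or more the distal shares were the lower ones, at 35.9% (29.1 to 43.3%) against 41.9% (39.5 to 44.4%) and 41.5% (35.9 to 47.3%) against 44.5% (42.4 to 46.6%). Joined at gaps of up to 10 kb, distal peaks formed 111 clusters in library 1 and 126 in library 2, of which 90 and 98 were pairs. Those of 3 or more lay at 0.14 and 0.187 per Mb, against 0.0858 and 0.101 in the rest.

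Clusters of 3 or more were 21 of the 111 distal clusters in library 1 and 28 of 126 in library 2, beside 155 of 743 and 183 of 919 in the rest. In library 1 the largest held 4 peaks, on chromosome 4 from 155134764 to 155158767 and on chromosome 10 from 126763552 to 126776771, and library 2 had 2 peaks in each of these stretches. In library 2 the largest held 5 peaks, on chromosome 7 from 148641126 to 148653888, chromosome 8 from 123587558 to 123613666 and chromosome 15 from 102180815 to 102201464, where library 1 had 1, 2 and 2 peaks. The rest of the chromosomes, a much longer span, had clusters of up to 11 and 10. Clustered distal peaks recurred at 21.6% and 20.9%, and distal peaks standing alone at 27.7% and 26.0%. In the rest these shares were 32.0% and 27.9% for clustered peaks and 37.9% and 34.4% for those alone.

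The peak that set the end of a chromosome came from library 1 on 8 chromosomes and from library 2 on 7, and on 3 of the 15 (chromosomes 1, 6 and 9) a partner was called in the other library too. The last called bases of the libraries lay a median of 41.8 kb apart. They differed by 1937 kb on chromosome 8 and by 1704 kb on chromosome 17, where single peaks with scores of 61.1 and 77.4 set the end. When the peaks that set the ends were left out and each end taken from the next called base, the density difference was 2.53 peaks per Mb (adjusted permutation p = 0.0587) and the difference in recurrence -7.52 percentage points (adjusted permutation p = 0.00449). The next called base again belongs to a peak, so the effect of ending each window at a peak was not tested. The true chromosome ends were not available here.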

How the data were processed

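The 2 H3S10p ChIP-seq peak lists were used. The authors called peaks with MACS separately in each library, per the file headers. The score of each peak was deposited by the authors as MACS wrote it, on a scale not given in the sources used here, like the threshold and any control library. Build mm9 and Bowtie are named in the submitters' processing notes. The table of RNA comparisons was not analysed here.

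Starts were converted to count from 1. The rest of a chromosome ran from 3 Mb, the assembled start, to 10 Mb before its last called base. Differences per chromosome, libraries averaged, were tested with an exact permutation test that flips their signs in all 32768 ways over the 15 chromosomes (two-sided), with Benjamini-Hochberg adjustment over 7 comparisons. An exact test over the 2 libraries cannot go below p = 0.5, so none was used. Counts have exact Poisson and shares Wilson 95% intervals. Places named were the 5 shared distal peaks with the highest mean score, the 3 widest per library, the 3 fullest bins, the largest clusters and the 3 chromosomes with the highest and the 3 with the lowest density difference; others were named after their values were seen. Calculations were tested on simulated peak lists. Region, comparisons and alternatives were chosen with earlier results of these data known. Python 3.11.15, NumPy 2.4.6, pandas 2.3.3, SciPy 1.17.1 and matplotlib 3.10.9 were used.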

Additional observations from a re-analysis of the deposited data

How the results depend on the processing

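Higher density than in the first 10 Mb passed without either library and, like lower recurrence at the ends, without any single chromosome. Recurrence needs both lists, so leaving out a library only takes the share from the other list and is no separate check. Recurrence did not pass in the upper 50% by score (-3.27 percentage points), at 5 Mb (-3.58) or in bins of 5 to 19 peaks (-5.26), and the density difference from the first 10 Mb did not at 5 Mb (3.70 peaks per Mb); the cause was not tested. Density against the rest passed at 20 Mb (2.43 peaks per Mb) and for single-library peaks (2.28), but not at 5 Mb (2.74) or as a log2 ratio (0.43), and median width passed at 20 Mb (-28.8 bp) but not at 5 Mb (-3.77 bp). Clustering, which never passed, changed sign without the peaks that set the ends (0.0748 percentage points), at 20 Mb (0.869), at a 50 kb gap (0.415) and in bins of 5 to 19 peaks (3.19), and score did in the upper 50% by score (0.157) and at 5 Mb (0.488). Leaving out 1 library or 1 chromosome at a time gave 1.98 to 2.996 peaks per Mb for density against the rest, -8.503 to -6.597 percentage points for recurrence, -1.003 to 0.908 for clustering, -29.9 to -8.03 bp for width, -1.47 to -0.438 for score, -0.279 to 1.64 peaks per Mb for the outer against the inner 5 Mb and 3.28 to 4.23 against the first 10 Mb. Read depth, unknown here, limits what a peak missing from 1 library means. Values were paired within chromosomes. For the replicate numbers of the labels, no paired analysis was possible because the ChIP libraries form a single group.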
